A study of Mus musculus with 10 samples.

Results

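The genes described here are 10 established targets of the transcription factor p53, measured in mouse small intestine organoids: Mdm2, Ccng1, Trp53inp1, Cdkn1a, Btg2, Plk2, Aen, Perp, Phlda3 and Zmat3. They were chosen by gene symbol as known p53 targets, with earlier results of these data in view. All 10 were found among the 19505 genes measured, each with 1 probe set. Organoids are self-organising cultures of intestinal epithelium, grown here from BALB/c mice in a gel of basement membrane proteins. RNA was measured on 10 single-colour arrays. In 5 cultures the organoids were kept for 48 h with recombinant mouse TNF at 20 ng/ml and with pegtarazimod at 5 mg/ml. Pegtarazimod is a peptide joined to PEG, and is known to block complement and myeloperoxidase. In the other 5 cultures, the vehicle group, they received 2.625 mM PEG with the same TNF for the same time. TNF was thus present in every culture, and each difference below is one between pegtarazimod and vehicle under TNF. The series design calls the 5 samples of a group biological replicates. The sources do not say what differed between them (mouse, line or culture), so p-values measure only the spread between these samples.

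The transcription factor p53 is held low in resting cells by the ubiquitin ligase Mdm2. DNA damage and other stress free it from Mdm2, after which it binds sites made of a pair of half-sites and raises genes that stop the cell cycle, repair DNA or start cell death, and Mdm2 itself, which closes a feedback loop. In the intestine it is best known from the crypt, whose dividing cells respond to radiation through p53.

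Promoter sequences of 4 members and of Btg2 are shown because the p53 half-site is the feature that links target genes to the factor, and because Btg2 is the member that fell. The sequences are from RefSeq (GRCm38.p6), which gave 9 promoter windows for 7 of the 10 members. Each window runs from 250 bases before to 50 bases after an annotated start. The motif searched was the p53 half-site consensus, a purine triplet and a pyrimidine triplet around a core that begins with C and ends with G, with A or T between. It is its own reverse complement, so a single pass reads both strands, and no mismatch was allowed. The half-site was found in 5 of the 9 windows, and in 2745 of all 32851 promoter windows (8.36%). The 2 windows of Aen overlap and hold the same half-site, which is counted in each. Counted by gene, it was found for 4 of the 7 members (Cdkn1a, Mdm2, Ccng1 and Aen) and for 9.55% of all genes with a window. The windows of Phlda3, Btg2 and Plk2 did not hold these letters, and Perp, Trp53inp1 and Zmat3 had no window in the table. In the lines below each stretch is 120 bases long and runs 5′ to 3′ on the gene's strand, with half-sites in capitals.
Cdkn1a (chr17:29090859-29090978, plus strand, the 120 bases before the upstream of 2 annotated starts): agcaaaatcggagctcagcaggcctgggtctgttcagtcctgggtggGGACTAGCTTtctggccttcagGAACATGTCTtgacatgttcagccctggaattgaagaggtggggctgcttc
Mdm2 (chr10:117710859-117710978, minus strand, 220 to 101 bases before the start): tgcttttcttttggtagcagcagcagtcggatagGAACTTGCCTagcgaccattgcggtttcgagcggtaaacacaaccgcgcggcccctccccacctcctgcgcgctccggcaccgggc
Ccng1 (chr11:40755397-40755516, minus strand, 230 to 111 bases before the start): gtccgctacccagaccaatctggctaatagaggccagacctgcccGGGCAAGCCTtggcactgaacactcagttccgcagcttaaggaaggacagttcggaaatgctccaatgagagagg
Aen (chr7:78895878-78895997, plus strand, 180 to 61 bases before the downstream of 2 annotated starts): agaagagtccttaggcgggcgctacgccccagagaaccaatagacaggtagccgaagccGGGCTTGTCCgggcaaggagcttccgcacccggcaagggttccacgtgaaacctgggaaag
Btg2 (chr1:134079156-134079275, minus strand, the 120 bases before the start): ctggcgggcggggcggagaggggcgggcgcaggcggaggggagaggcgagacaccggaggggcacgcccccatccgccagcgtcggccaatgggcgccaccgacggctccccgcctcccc
The Cdkn1a stretch is the only 1 of the 5 with 2 exact matches, which start 73 and 51 bases before the annotated start and have 12 bases between them. Half-sites with a mismatch were not searched, so exact matches alone do not show which letters pair into a full site. In Cdkn1a tgacatgttc directly follows the second match, and in Ccng1 agacctgccc directly precedes the match, each off the motif by 1 letter. A match describes the letters of the window. Binding of p53 was not measured.

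With pegtarazimod, 1 of the 10 p53 target genes rose (Perp) and 1 fell (Btg2), and the other 8 did not pass the test. Perp was 1.39-fold higher and Btg2 1.28-fold lower. The best known targets were among the 8: the log2 difference was -0.06 for Cdkn1a, -0.01 for Ccng1 and -0.31 for Mdm2. Differences are pegtarazimod minus vehicle on the log2 scale, fitted by limma over all 19505 genes, and a gene passed at a Benjamini-Hochberg adjusted p below 0.05. By this rule 4.89% of all genes changed, 2.50% higher and 2.39% lower. The groups did not overlap for the same 2 members and for 6.71% of all genes. At an unadjusted limma p below 0.05 stood 5 members (Perp, Btg2, Zmat3, Plk2 and Mdm2) and 19.0% of all genes.

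**Figure D1:**
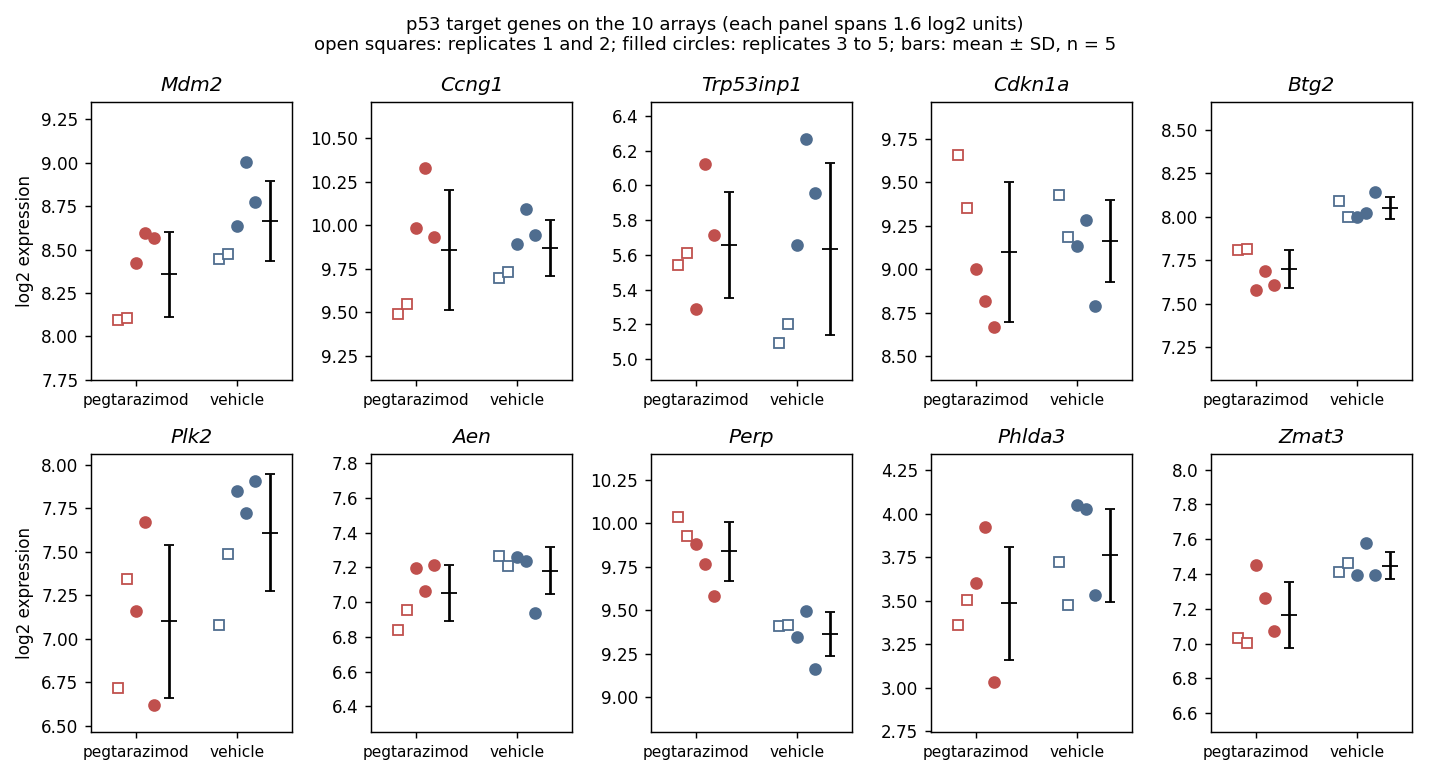
Log2 expression of the 10 p53 target genes on each array, pegtarazimod left of vehicle, with open squares for replicates 1 and 2, filled circles for replicates 3 to 5, and the mean ± SD of 5 arrays beside them; every panel spans the same log2 range. The groups are apart for Perp (higher with pegtarazimod) and Btg2 (lower) and overlap for the other 8 genes.

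Among the members that act on p53 itself, none passed the test. Mdm2, the ubiquitin ligase that targets p53 for degradation, had log2 values of 8.09, 8.11, 8.42, 8.59 and 8.57 with pegtarazimod (replicates 1 to 5), against 8.44, 8.47, 8.64, 9.004 and 8.77 with vehicle. In each group replicates 1 and 2 were the lowest, and the groups overlapped. The difference was -0.31 ± 0.13 (SE; 95% interval -0.60 to -0.02, limma adjusted p = 0.229). Ccng1 encodes cyclin G1, a partner of Mdm2 and of the phosphatase PP2A. It had values of 9.49, 9.55, 9.99, 10.33 and 9.93 with pegtarazimod, against 9.70, 9.73, 9.89, 10.09 and 9.94 with vehicle. The pegtarazimod arrays spanned a range that held all 5 vehicle values, and the 95% interval of the difference was -0.33 to 0.30 (limma adjusted p = 0.976). Trp53inp1 encodes a stress-induced nuclear protein that promotes p53 phosphorylation. It averaged 5.66 ± 0.30 with pegtarazimod and 5.63 ± 0.50 with vehicle (SD, n = 5 each), with a 95% interval of the difference of -0.43 to 0.47.

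Of the 3 members that restrain or time the cell cycle, Btg2 fell. Btg2 is an antiproliferative protein that brings the deadenylase complex to mRNAs. Its log2 values were 7.81, 7.82, 7.58, 7.69 and 7.61 with pegtarazimod, against 8.09, 7.999, 8.001, 8.02 and 8.14 with vehicle. All 5 pegtarazimod arrays lay below all 5 vehicle arrays, with 0.18 between the nearest. The means were 7.70 ± 0.11 and 8.05 ± 0.06 (SD, n = 5 each), a difference of -0.35 ± 0.08 (SE; 95% interval -0.53 to -0.17, limma adjusted p = 0.0290). This call was lost on leaving out vehicle 1, 2, 3, 4 or 5 or pegtarazimod 3 or 5, with adjusted p between 0.0506 and 0.0701 and a difference of -0.32 to -0.36. The spread of Btg2 between replicates was small: the SD within groups was 0.09, and 4.30% of all genes had a smaller one.

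Cdkn1a encodes p21, the inhibitor of cyclin-dependent kinases through which p53 stops the cell cycle. Its values were 9.66, 9.35, 9.002, 8.82 and 8.67 with pegtarazimod, against 9.42, 9.18, 9.13, 9.28 and 8.79 with vehicle. The pegtarazimod arrays included both the highest and the lowest of the 10 values, and the 95% interval of the difference was -0.44 to 0.31 (limma adjusted p = 0.896). Changes smaller than these bounds could not be resolved with 5 arrays a group. Plk2, a polo-like kinase of centriole duplication, had values of 6.71, 7.34, 7.16, 7.67 and 6.62 with pegtarazimod, against 7.08, 7.49, 7.85, 7.72 and 7.91 with vehicle. It had the largest difference in size of the 10 members, -0.51 ± 0.20 (SE; 95% interval -0.94 to -0.08), but overlapped between groups and did not pass (limma adjusted p = 0.180). Its SD within groups was 0.39, larger than that of 96.9% of all genes.

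Of the 3 members tied to cell death and survival, Perp rose. Perp is a membrane protein that takes part in p53-dependent cell death and is also a component of desmosomes in epithelia. Its log2 values were 10.03, 9.93, 9.88, 9.77 and 9.58 with pegtarazimod, against 9.41, 9.41, 9.34, 9.49 and 9.16 with vehicle. All 5 pegtarazimod arrays lay above all 5 vehicle arrays, with 0.09 between the nearest. The means were 9.84 ± 0.17 and 9.36 ± 0.13 (SD, n = 5 each), a difference of 0.47 ± 0.10 (SE; 95% interval 0.26 to 0.69, limma adjusted p = 0.0173). Without vehicle 3 the difference was also 0.47 and the adjusted p 0.0510. Perp ranked 357th by size among the 488 genes that rose, and Btg2 445th among the 466 that fell.

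Aen encodes a nuclease that degrades DNA and RNA during cell death. It averaged 7.05 ± 0.16 with pegtarazimod and 7.18 ± 0.14 with vehicle (SD, n = 5 each), a difference of -0.13 with a 95% interval of -0.35 to 0.09. Phlda3, a membrane-bound repressor of the survival kinase Akt, had values between 3.04 and 3.93 with pegtarazimod and between 3.48 and 4.05 with vehicle. Both of its group means, 3.49 and 3.76, were under each array's lower quartile (3.84 to 3.90). Without detection calls, whether so dim a signal lies above background was not tested. The difference of Phlda3 (-0.28, limma adjusted p = 0.391) is uncertain for that reason. Zmat3 encodes a zinc finger protein that binds RNA and alters splicing and mRNA stability. It had values of 7.03, 7.002, 7.45, 7.26 and 7.07 with pegtarazimod, against 7.41, 7.46, 7.40, 7.58 and 7.39 with vehicle. Pegtarazimod 3 was the only treated array that reached the vehicle range. The difference was -0.28 ± 0.10 (SE; 95% interval -0.50 to -0.07) and did not pass (limma adjusted p = 0.128), but passed without pegtarazimod 3 (-0.36, adjusted p = 0.0454).

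**Figure D2:**
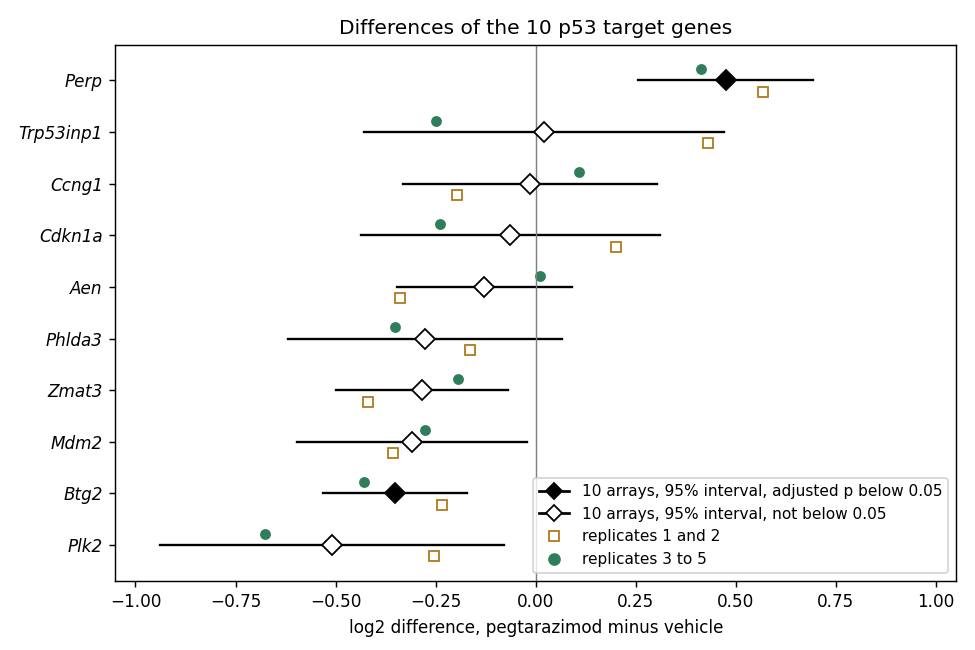
Log2 differences (pegtarazimod minus vehicle) of the 10 p53 target genes with their 95% intervals over 10 arrays (diamonds, filled where the adjusted p is below 0.05), and the differences within replicates 1 and 2 (open squares) and within replicates 3 to 5 (filled circles). Perp at 0.47 and Btg2 at -0.35 are the filled diamonds, and Cdkn1a, Ccng1, Trp53inp1 and Aen have subset values on opposite sides of 0.

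The 10 genes did not all move in 1 direction, and a shift of the whole set was not tested. Their differences ran from -0.51 to 0.47, 8 were below 0 and 2 above, and the median was -0.20, against a median of 0.0029 over all genes, of which 49.3% were below 0. The median size of their differences, without the sign, was 0.28, against 0.11 over all genes. Their median SD within groups was 0.25, against 0.18 over all genes. Trp53inp1, Plk2, Cdkn1a and Phlda3 had larger SDs than 91.0% to 97.4% of all genes. In Perp, Btg2, Zmat3 and Aen it was smaller, at 0.09 to 0.15.

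Part of that spread followed the replicate numbers. On these arrays replicates 1 and 2 stand apart from replicates 3 to 5 in both groups, and the labels name no batch. Mdm2 and Ccng1 were lower in replicates 1 and 2 than in replicates 3 to 5 in both groups with no overlap, a pattern shared by 9.50% of all genes in 1 direction or the other. For Mdm2 the 2 subsets differed by -0.43 with pegtarazimod and by -0.35 with vehicle, beside the -0.31 between treatment groups. For Ccng1 the subsets differed by -0.57 and -0.26. Cdkn1a ran the other way, higher in replicates 1 and 2 by 0.68 with pegtarazimod and by 0.24 with vehicle, where the subsets overlapped. Trp53inp1 was lower in replicates 1 and 2 by 0.81 with vehicle and differed by -0.13 with pegtarazimod.

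The response to pegtarazimod was therefore also read within each subset, from a model with 4 groups. The split has no label behind it and was chosen with earlier results of these data known. Calls made within a subset, or with the subsets as a block, rest on that choice. With the block 1820 of all genes passed, against 954 without it. Perp differed by 0.57 in replicates 1 and 2 (limma adjusted p = 0.0387) and by 0.41 in replicates 3 to 5 (0.0945). Btg2 differed by -0.23 (0.373) and -0.43 (0.0381) in the same order. Perp was the 1 member that passed within replicates 1 and 2, where 6.30% of all genes did, and Btg2 the 1 member within replicates 3 to 5, where 3.34% did. Cdkn1a differed by 0.20 and -0.24 in the subsets, Trp53inp1 by 0.43 and -0.25, and Ccng1 by -0.20 and 0.11, none of them past the threshold. The difference between the subsets' differences passed for 0 of the 10 members and for 0.0256% of all genes by limma, with adjusted p from 0.632 to 0.954 for the members. With the 2 subsets as a block, 3 members passed: Perp (limma adjusted p = 0.0053), Btg2 (0.0145) and Mdm2 (-0.31, 0.0448), where 9.33% of all genes did.

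The genes around these members were taken from lists of the p53 pathway. Among 19 genes of the p53 family and its regulators none passed the limma test, where 4.89% of all genes did. At an unadjusted limma p below 0.05 stood 3 of the 19 and 19.0% of all genes. The 3 were the damage kinase genes Atr and Chek1, lower, and the ubiquitin ligase gene Cop1, higher, named after their values were seen. With the 2 subsets as a block Chek1 and Cop1 passed, where 9.33% of all genes did. The median difference of the 19 genes was -0.13, and they ran from -0.58 to 0.39. Mdm4, which binds p53 beside Mdm2, differed by -0.11 (limma adjusted p = 0.714). The p53 relatives Trp63 (averages of 2.96 with pegtarazimod and 3.10 with vehicle) and Trp73 (2.82 and 2.95) were also under each array's lower quartile. Trp53 itself was not analysed here.

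Beyond the 10 members, 46 further p53 targets in 4 lists were measured. Of these 2 rose, none fell by limma, and 44 did not pass, with a median difference of -0.02, 26 genes below 0 and 20 above. The 2 that rose are 4.35% of the 46, beside the 4.89% of all genes that changed. At an unadjusted limma p below 0.05 stood 14 of the 46 and 19.0% of all genes. With the 2 subsets as a block 5 passed, Fas and Gpx1 higher and Pmaip1, Ckap2 and Lig1 lower, where 9.33% of all genes did. The model with 4 groups called 2 within replicates 1 and 2 (Ephx1 higher, Lig1 lower) and 3 within replicates 3 to 5 (Gpx1 and Steap3 higher, Pmaip1 lower). Fas, the death receptor gene (1 of 12 cell death targets to pass), averaged 5.69 ± 0.13 with pegtarazimod and 5.31 ± 0.13 with vehicle (SD, n = 5 each), a difference of 0.37 (limma adjusted p = 0.0402). Its groups overlapped, and it no longer passed when any 1 of 8 arrays was dropped (adjusted p = 0.110 without vehicle 3). In the same list 3 other genes had an unadjusted limma p below 0.05, named after their values were seen. Pmaip1, which encodes the BH3-only protein Noxa, differed by -0.43 (limma adjusted p = 0.0833), larger in size than that of Fas and in the other direction. The death receptor gene Tnfrsf10b differed by -0.27 (0.233) and Steap3 by 0.51 (0.181). Gpx1, the glutathione peroxidase gene (1 of 12 targets of metabolism and redox to pass), averaged 10.11 ± 0.15 and 9.60 ± 0.07, a difference of 0.51 (limma adjusted p = 0.0065), and still passed with any 1 array left out. In its list Tigar, Ephx1 and Lpin1 also had an unadjusted limma p below 0.05, named after their values were seen. Of 12 targets of cell cycle and growth none passed. Of 10 in the list of DNA repair and nucleotide supply, which also holds the TNF receptor superfamily gene Tnfrsf18, none passed either. An unadjusted limma p below 0.05 was found for 4 of the 12 (Sfn, Ckap2, Rb1 and Cd82) and 2 of the 10 (Ddb2 and Lig1). They were named after their values were seen. Bax and Gdf15 were not analysed here.

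Cell cycle genes that p21 represses through the DREAM complex all had differences below 0. Of 17 measured, 3 fell, none rose and 14 did not pass by limma, with a median of -0.35. By the same test 2.39% of all genes fell. An unadjusted limma p below 0.05 was found for 9 of the 17 and for 19.0% of all genes. The count past the adjusted threshold moved with the fit. With the 2 subsets as a block 7 fell (Cdk1, Bub1, Ccna2 and Kif23 beside the 3), where 9.33% of all genes passed. Within replicates 1 and 2 it was 8, where 6.30% of all genes passed. Within replicates 3 to 5 only Ect2 fell, where 3.34% of all genes passed. The count was 1 without vehicle 3 and 6 without pegtarazimod 4. Ect2, a regulator of cytokinesis, had values between 8.35 and 9.36 with pegtarazimod and between 9.56 and 10.03 with vehicle, a difference of -0.87 (limma adjusted p = 0.0159, and 0.0515 without vehicle 3). The centromere protein gene Cenpf differed by -0.51 (0.0169). The spindle midzone gene Prc1 differed by -0.54 (0.0412), and no longer passed when any 1 of 8 arrays was dropped (0.105 without vehicle 3). The difference of Cdkn1a beside them was -0.06. Within replicates 1 and 2 it was 0.20 and within replicates 3 to 5 -0.24, none of them past the threshold. Whether p21 had a part in the differences of these genes was not tested. Of the 6 other cyclin-dependent kinase inhibitor genes none passed by limma and none had an unadjusted p below 0.05, with differences from -0.14 to 0.16. The -0.14 belongs to Cdkn2a, named after its values were seen. It averaged 2.79 with pegtarazimod and 2.93 with vehicle, under each array's lower quartile.

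Btg2 and Plk2 are also known as early response genes, which growth factors and cytokines raise within minutes to hours. Of 25 immediate early genes measured, 4 fell, none rose and 21 did not pass by limma, with a median difference of -0.18. By the same test 2.39% of all genes fell. With the 2 subsets as a block 6 fell, where 9.33% of all genes passed. Within replicates 1 and 2 it was 2, where 6.30% of all genes passed. Within replicates 3 to 5 it was 4, where 3.34% of all genes passed. An unadjusted limma p below 0.05 was found for 12 of the 25 and for 19.0% of all genes. Ier3, an early response gene of NF-kB, fell by 1.33 on the log2 scale (limma adjusted p = 4.82e-05), and the matricellular gene Ccn1 fell by 1.80 (0.0027). The stress-induced transcription factor gene Atf3 fell by 0.56 (0.0071), and Klf6, another transcription factor gene, by 0.68 (0.0096). In the families of Btg2 and Plk2, none of 3 other BTG and TOB genes and none of 4 other polo-like kinase genes passed. In each family 1 gene had an unadjusted limma p below 0.05, named after its value was seen. Tob1 differed by 0.47, the other way from Btg2, and Plk4 by -0.36. Both passed with the 2 subsets as a block.

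**Figure D3:**
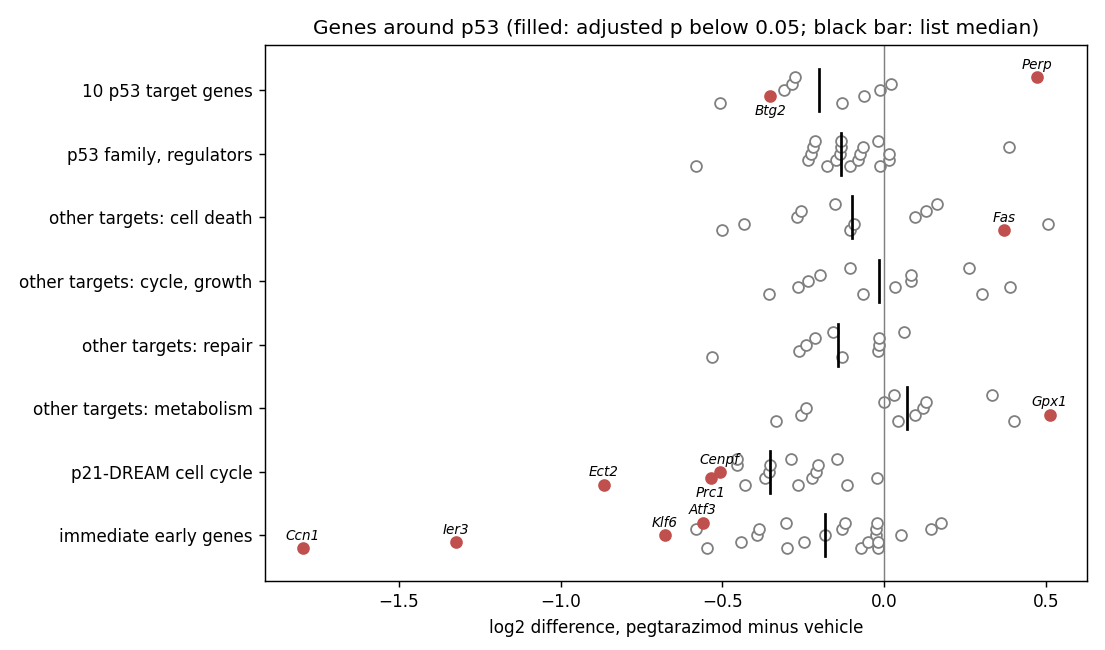
Log2 differences (pegtarazimod minus vehicle) of single genes in the 10 p53 target genes and 7 lists around them, filled where the adjusted p over all genes is below 0.05, with a black bar at each list's median. Most points lie between -0.6 and 0.6, 2 of 46 further p53 targets are filled (Fas and Gpx1), and the p21-DREAM genes all lie left of 0.

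Markers of epithelial cell types differed between the groups beside these results. By limma 2.50% of all genes were higher and 2.39% lower. Of 6 stem cell markers 5 were lower, and the mean log2 level of the list was 7.21 to 7.93 with pegtarazimod and 8.69 to 9.06 with vehicle. Of 8 enterocyte markers 3 were higher, with list means of 9.63 to 10.85 and 8.72 to 9.46, and of 7 goblet markers 6 were higher, with list means of 7.97 to 8.22 and 7.04 to 7.32. Of 7 Paneth markers 4 were lower, with list means of 7.04 to 8.39 and 8.25 to 9.37. With the 2 subsets as a block 6 of the enterocyte markers and 7 of the Paneth markers passed, where 9.33% of all genes did. Of 5 enteroendocrine markers 2 were higher (Gcg by 1.38 and Cck by 0.75) and 1 lower (Neurog3, -0.85), with list means of 8.88 to 9.21 and 8.42 to 8.95. Of 5 tuft markers none passed by limma, 2 had an unadjusted p below 0.05, and the list means were 4.80 to 4.91 and 4.81 to 4.97. Fewer cells of a type and less RNA per cell cannot be told apart in bulk RNA, and the part of these shifts in the differences of Perp, Btg2 or the cell cycle genes was not tested. Of 8 general epithelial markers 1 was higher (Krt19, 0.33, limma adjusted p = 0.0350, no longer past the threshold when any 1 of 9 arrays was dropped). An unadjusted limma p below 0.05 was found for 3 of these 8. Krt18, named after its value was seen, differed by -0.47, opposite to Krt19 and larger in size (limma adjusted p = 0.140). Blocking by subset called 2 of the 8, Krt19 higher and Krt18 lower (limma adjusted p = 0.0040 for Krt18), where 9.33% of all genes passed. The epithelial list means were 10.30 to 10.38 with pegtarazimod and 10.24 to 10.34 with vehicle. Of 6 leukocyte, 5 fibroblast and 4 endothelial markers none passed by limma, 2 had an unadjusted p below 0.05, and the list means lay between 3.48 and 4.76 with pegtarazimod and between 3.55 and 4.58 with vehicle. These levels come from different probes and give no share of any cell type.

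The genes most like each changed member were sought over the 10 arrays by Pearson's r, a measure that follows the difference between groups as well as the spread within them. For Perp they were Slc6a6 (r = 0.965), Lgals8 (0.962) and Asb13 (0.959), which differed by 0.38, 0.30 and 0.39, with limma adjusted p of 0.0603, 0.0550 and 0.0359. For Btg2 they were Denn2b (r = 0.934), Csgalnact1 (0.929) and Pitpnc1 (0.925), which differed by -0.32, -0.38 and -0.82, with limma adjusted p of 0.0547, 0.0396 and 0.0035.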

How the data were processed

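RNA of 10 organoid samples was measured on 10 single-colour arrays. Per the submitters' processing notes, the authors made the deposited log2 values by RMA (package oligo), that is by background correction, quantile normalisation and a summary for each probe set. The sources name no versions, annotation or build for that step. Quantile normalisation would hide a shift shared by most genes. Levels of different genes were not ranked, because probes differ in brightness, and dim genes were only placed against each array's lower quartile. The labels gave the groups and the replicate numbers.

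Of 22203 probe sets, 19572 had 1 gene symbol in the platform annotation, 0 had several, and 2631 had none here and were left out. Identifiers of all 19572 were found in a GRCm38.p6 table of genes. For the 55 of 19505 genes with several probe sets, the probe set of highest mean was used. No detection calls were used. Arrays correlated at 0.983 to 0.994 within groups and at 0.974 to 0.991 between groups. The number of arrays limits the precision.

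The comparison used lmFit and eBayes of limma 3.58.1 (R 4.3.3) without covariates, with Benjamini-Hochberg adjustment over 19505 genes and a threshold of 0.05. The method was tested on simulated data. Alternatives were quantile normalisation, median centring, filters on dim genes, robust priors with an intensity trend, array weights, blocks for replicate number or subset, the mean over probe sets, each subset's difference from the model with 4 groups over all 10 arrays, and leaving out each array. For the gene lists these alternatives were added after seeing the data. Named were the 10 members, up to 6 genes with the smallest p per list among those past the threshold, Trp53, Mdm4, Bax, Gdf15, Trp63 and Trp73 where measured, and the 3 genes most like each changed member. Markers of cell types are given as counts. The members and lists were chosen with earlier results of these data known, as were the subsets of replicates 1 and 2 and of replicates 3 to 5. Promoter sequences are from RefSeq, GRCm38.p6. Plots were made in Python 3.11.15 with matplotlib 3.10.9.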

Additional observations from a re-analysis of the deposited data

Results flagged for a closer look

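Among the 10 p53 target genes, 1 array stood far from the others of its group. Aen had a log2 value of 6.939 on vehicle 5, the lowest of its group, and the next vehicle array was at 7.208. This gap was 0.829 of the whole range of the 5 vehicle values. Chance alone flags about 1 in 20 such groups.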

How the results depend on the processing

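Perp and Btg2 kept their direction under all 21 alternatives run for each. Perp passed in 19 and Btg2 in 13, and the exceptions were fits without 1 array and the differences within 1 subset, which the model with 4 groups takes over all 10 arrays. The number of p53 target genes that changed was 2 over all arrays, 1 within replicates 1 and 2, 1 within replicates 3 to 5, and 0 to 2 on leaving out 1 array. Without vehicle 3 it was 0, and 437 genes changed in all. The number of all genes that changed, 954, was 1606 with the replicate block and 1820 with the 2 subsets as a block, and lay between 437 and 1245 on leaving out 1 array. Deviations from the group means correlated between same-numbered arrays at r = 0.0994 to 0.310, and 4 of 5 pegtarazimod arrays correlated best with the vehicle array of their own number. With the replicate block the same 2 members passed (adjusted p = 0.0079 for Perp and 0.0369 for Btg2), where 8.23% of all genes did. Alternatives for the gene lists were chosen after seeing the data. With the replicate block 6 of the 46 further p53 targets passed (Fas, Gpx1 and Sfn higher; Pmaip1, Lig1 and Tigar lower), 5 of the 17 p21-DREAM genes, 8 of the 25 immediate early genes, 7 of the 7 Paneth and 7 of the 8 enterocyte markers, and also Chek1, Cop1, Tob1 and Plk4. The number of p21-DREAM genes that changed was 5 with the dimmest 50% left out and 5 with an intensity trend and robust priors. Directions that reversed belonged to genes that did not pass in either fit. Within replicates 1 and 2, Cdkn1a differed by 0.20 and Trp63 by 0.032. Within replicates 3 to 5, Ccng1 differed by 0.11, Trp53inp1 by -0.25 and Aen by 0.012. With arrays centred on their medians Ccng1 differed by 0.014. On leaving out 1 array Cdkn1a ran from -0.20 to 0.045, Ccng1 from -0.13 to 0.079 and Trp53inp1 from -0.11 to 0.18. Filters on the dimmest 25% or 50% of genes left out Phlda3. The cause of these changes was not tested. Signal near or under the lower quartile limits Phlda3, Trp63 and Trp73, and in the p53 lists also Cdkn2a and Fancc.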

Other observations

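The p53 half-site was also counted in the RefSeq promoter windows of the further p53 targets. Of 43 genes with a window, 10 held it (23.3%), against 9.55% of all genes with a window: Abhd4, Bax, Ckap2, Ei24, Gadd45a, Gtse1, Polk, Rap2b, Sesn1 and Siva1. None of the 9 of these measured here changed by limma, with 1 at an unadjusted p below 0.05 (Ckap2), and Bax was not analysed here. None of the 4 members with a half-site changed either, with 1 at an unadjusted p below 0.05 (Mdm2). Of all genes 4.89% changed and 19.0% had an unadjusted limma p below 0.05, so counts this small do not set genes with a half-site apart. With the 2 subsets as a block Ckap2 (limma adjusted p = 0.0285) and Mdm2 (0.0448) passed, where 9.33% of all genes did. Fas and Gpx1, the further targets that rose, had windows without these letters.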
